A study of Homo sapiens with 4 samples.

Results

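The 10 genes described here encode surface molecules of T lymphocytes: CD4, CD2, CD5, CD6, CD7, CD28, CD69, CD47, CD99 and CD44. They were taken by gene symbol from the deposited table of expression values, in which they filled 11 of 16328 transcript rows. CD99 filled 2 of these rows, identical across the libraries and with the same 3 accessions, and was counted once, so that 10 rows of 16151 remained. The cells were Jurkat, a long-established line from a human T cell leukemia, transduced with lentiviral short hairpins: 1 library came from cells with the control hairpin (Control) and 3 from cells with hairpins against SLEAR (SLEAR shRNA-1, -2 and -3). It is not stated whether these 3 carried distinct hairpins or 1 hairpin repeated, or whether they were grown as separate cultures, so the p-values reflect no more than the spread of these libraries, and that spread may be technical. Values are RPM (reads scaled to the library total) from MAPS, a method that reads the 3' end of polyadenylated RNA. They are not divided by transcript length, and levels are compared here between libraries and not between genes. In bulk RNA, fewer cells carrying a transcript and less of it per cell cannot be told apart.

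A T cell reads antigen through its receptor, and several of these molecules set how strongly it answers. CD4 is a coreceptor that brings the kinase LCK to the receptor, CD2 is an adhesion receptor for CD58, and CD28 is the main costimulatory receptor, with CD80 and CD86 as ligands. CD5 and CD6 are related scavenger receptor cysteine-rich proteins that tune receptor signals, CD7 is an immunoglobulin superfamily protein that appears early in the T lineage, and CD69 is an early marker of activation. CD47, CD99 and CD44 are found on many cell types: CD47 binds SIRP proteins and restrains phagocytosis, CD99 takes part in adhesion and migration, and CD44 is the receptor for hyaluronan.

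Because only the end next to the poly(A) tail was sequenced, the annotated 3' ends are shown here as background to these values. The last 30 bases of GENCODE 29 transcripts (GRCh38) that carry an accession of the row are given below for the genes on which the results turn, 5′ to 3′. Capitals mark the last AATAAA or ATTAAA, the usual signals for cleavage and polyadenylation, searched on the transcript strand only.
CD4: ataaaaatacAATAAActtactataaagat
CD7: accagaAATAAAggcttctgtgcttccttt
CD28: tatatAATAAAtatttattgactgagtgaa
CD2: gagtaaaagtgaAATAAAagctttgactag
CD5: ccaaaAATAAAgagtttagttgaggagaaa
CD47, longer transcript: agagttttaATTAAAagttttaaatcagtc
CD47, shorter transcript: tgtaatttagttAATAAAataattatgatc

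One of these signals lay in the last 30 bases of the longest matched transcript for all 10 genes, and for 66.5% of the 15627 rows of the table with a matched transcript. CD47 has annotated transcripts of 5225 and 1285 bases with different ends that share 1 row, so reads from its long and short 3' ends were not separated. Rows of other genes, among them CD44, also joined transcripts with different annotated ends. The sources used here do not give whether reads came from the annotated ends.

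The libraries differed in depth. Read off the step between low values, it was 8384889 reads for Control and 7048620, 7524253 and 4814166 reads for SLEAR shRNA-1, -2 and -3, and SLEAR shRNA-3 had 6941 rows at 0 where the others had 2314 to 2984. Of 10 T cell markers, all were in the table, with a summed level of 5527 RPM in Control and 4854 to 5925 RPM in the SLEAR shRNA libraries. CD3G was at 0.238 RPM in Control and at 0 in the others. TCF7, a T lineage transcription factor, was at 354 RPM in SLEAR shRNA-3 against 1321 to 1490 RPM in the other 3 libraries. GATA3 went the other way, with 8.72 RPM in SLEAR shRNA-3 against 0.930 to 1.56 RPM in the others. Markers of B cells (3 of 7 in the table) summed to 12 RPM in Control and 19.7 to 23.1 RPM in the SLEAR shRNA libraries, nearly all of it CD79A; the part of this in the results was not tested. Markers of myeloid cells (8 of 9 in the table) summed to 13.2 RPM in Control and 6.91 to 13.7 RPM in the SLEAR shRNA libraries, mostly FCER1G, with ITGAM and TYROBP at 0 throughout. The fibroblast, epithelial and erythroid sums were at most 3.19 RPM. The SLEAR transcript is not analysed here, and how far it was reduced is thus unchecked.

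Setting SLEAR shRNA against Control asks how these surface molecules differ when SLEAR is targeted. CD7 and CD4 were at a higher level in all 3 SLEAR shRNA libraries than in Control, CD28 was at a lower level in all 3, and CD2 and CD5 had SLEAR shRNA libraries on both sides of Control. None of the 10 genes passed the test (limma-trend on log2(RPM + 1), Benjamini-Hochberg adjustment over 12350 tested rows, threshold 0.05), in which 0% of all tested rows were called higher and 0% lower. Before adjustment, 92 rows (0.745%) were higher and 239 (1.94%) lower at p under 0.05, 0 of them among the 10 genes, and limma-voom called 0 rows too. Control lay below all 3 SLEAR shRNA libraries for 3 of the 10 genes (CD4, CD6 and CD7), against 17.8% of all tested rows. It lay above all 3 for 5 of the 10 (CD28, CD69, CD47, CD99 and CD44), against 28.6% of all tested rows. These shares depend on level: among the 4851 rows with a mean log2(RPM + 1) of at least 4 they were 25% below and 25.6% above. The median log2 difference was -0.06 over the 10 genes and -0.11 over all tested rows. With 1 Control library, a permutation of single values cannot give a p below 0.25, and the Control is assumed to vary like the SLEAR shRNA libraries.

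**Figure D1:**
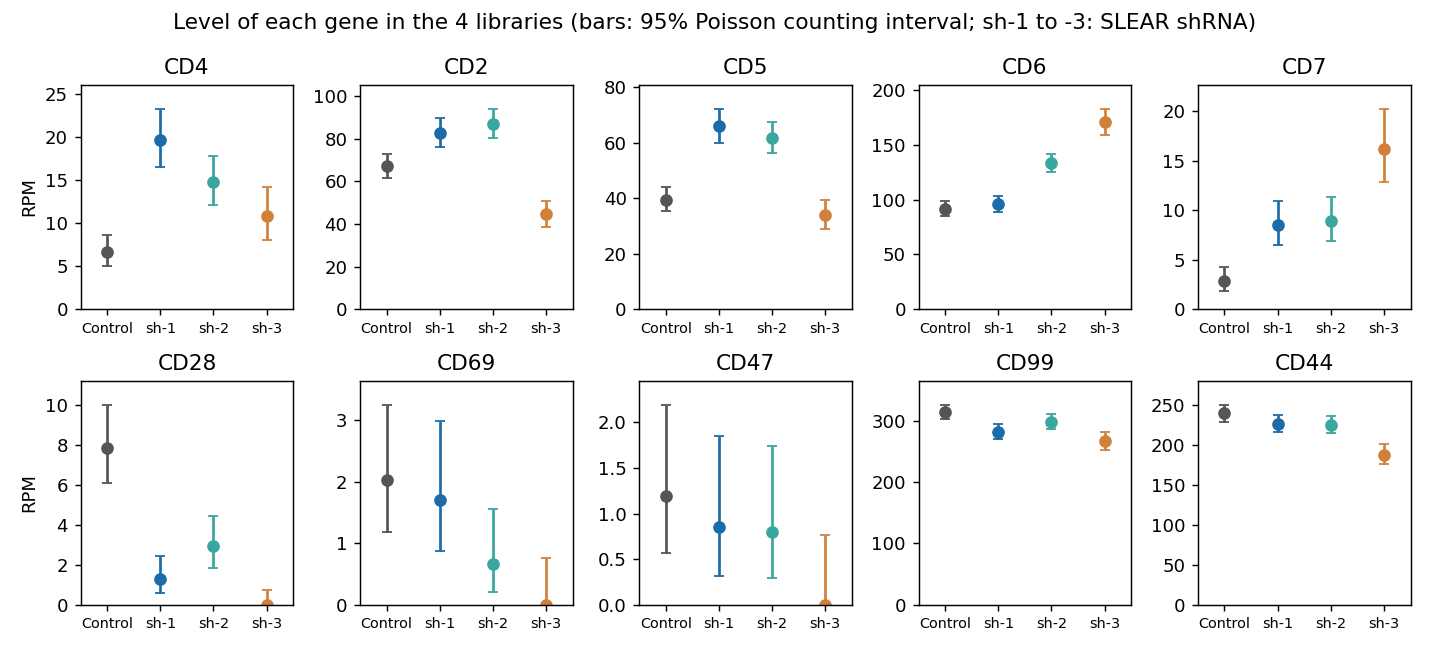
RPM (y axis, linear, from 0, scaled for each gene) of the 10 genes in Control and SLEAR shRNA-1, -2 and -3 (x axis, sh-1 to sh-3). Points are single libraries and bars the 95% Poisson interval of the estimated reads, which covers counting error only; CD7 lies above Control and CD28 below it in all 3 SLEAR shRNA libraries with intervals that do not overlap.

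CD4, the coreceptor for class II molecules, was at 6.68 RPM in Control. In SLEAR shRNA-1, -2 and -3 it was at 19.7, 14.8 and 10.8 RPM. Every SLEAR shRNA library was higher than Control, SLEAR shRNA-1 the most, and the groups did not overlap. These levels rest on about 56 reads in Control and 139, 111 and 52 reads in the others. By counting alone (exact Poisson intervals at 95%), SLEAR shRNA-1 and -2 were above Control, while the interval of SLEAR shRNA-3, 8.07 to 14.2 RPM, overlapped that of Control, 5.05 to 8.67 RPM. The mean of the SLEAR shRNA libraries was 15.1 ± 4.47 RPM (SD, n = 3) and the fitted log2 difference was 1.03 ± 0.56 (SE, limma-trend adjusted p = 0.993).

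CD7, the early T lineage glycoprotein, was at 2.86 RPM in Control, and SLEAR shRNA-1, -2 and -3 had 8.51, 8.90 and 16.2 RPM. All 3 SLEAR shRNA libraries were higher, the first 2 of them nearly equal and SLEAR shRNA-3 the highest. The reads behind these values were about 24, 60, 67 and 78. The counting interval of Control, 1.83 to 4.26 RPM, lay below those of all 3 SLEAR shRNA libraries, which was so for 4.83% of all tested rows. The SLEAR shRNA mean was 11.2 ± 4.33 RPM (SD, n = 3), and the log2 difference was 1.60 ± 0.68 (SE, limma-trend adjusted p = 0.993). CD7 had the smallest unadjusted p of the 10 genes, 0.0723, at rank 522 of the 12350 rows.

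CD6 was at 91.7 RPM in Control, and SLEAR shRNA-1, -2 and -3 had 96, 133 and 171 RPM. SLEAR shRNA-1 was close to Control and the other 2 were higher, so that the SLEAR shRNA libraries differed more from each other than the lowest of them did from Control. The mean was 133 ± 37.3 RPM (SD, n = 3) and the log2 difference 0.50 ± 0.37 (SE, limma-trend adjusted p = 0.993). CD5, its relative, was at 39.5 RPM in Control and at 65.8, 61.5 and 33.9 RPM. It was higher than Control in SLEAR shRNA-1 and -2, which agreed within counting error, and lower in SLEAR shRNA-3, so the groups overlapped. By counting alone, the interval of SLEAR shRNA-3, 28.9 to 39.5 RPM, overlapped that of Control, 35.3 to 44.0 RPM. Its SLEAR shRNA mean was 53.7 ± 17.4 RPM (SD, n = 3), and the log2 difference was 0.38 ± 0.46 (SE, limma-trend adjusted p = 0.993). In the reference annotation no protein-coding gene lies between CD5 and CD6. In SLEAR shRNA-3, against the mean of SLEAR shRNA-1 and -2, CD6 was higher by 0.59 and CD5 differed by -0.89 on the log2(RPM + 1) scale. For this difference, 77.6% of all tested rows lay below CD6 and 28.7% below CD5. The 5th and 95th percentiles were -2.44 and 1.69, so both shifts were common in that library.

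CD2, the CD58 receptor, lay on both sides of Control, as CD5 did. It was at 67 RPM in Control, higher in SLEAR shRNA-1 and -2, with 82.7 and 87.1 RPM, and lower in SLEAR shRNA-3, with 44.5 RPM. Control lay between the SLEAR shRNA libraries, and by counting alone 2 of these were above it and 1 below. The 1 below was SLEAR shRNA-3, whose values spread by more than counting error. The mean was 71.4 ± 23.4 RPM (SD, n = 3) and the log2 difference 0.03 ± 0.46 (SE, limma-trend adjusted p = 0.997). SLEAR shRNA-1 and -2 above Control with SLEAR shRNA-3 below it, as in CD2 and CD5, was seen in 15.7% of all tested rows.

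CD28, the costimulatory receptor, was at 7.87 RPM in Control, and SLEAR shRNA-1, -2 and -3 had 1.28, 2.92 and 0 RPM. All 3 SLEAR shRNA libraries were lower and the groups did not overlap. The reads were about 66 in Control against 9, 22 and 0. The counting interval of Control, 6.09 to 10.0 RPM, lay above the intervals of SLEAR shRNA-1 (0.584 to 2.42 RPM), SLEAR shRNA-2 (1.83 to 4.43 RPM) and SLEAR shRNA-3 (0 to 0.766 RPM), which was so for 6.9% of all tested rows. Against the mean of SLEAR shRNA-1 and -2, 2.10 RPM, the level in Control was 3.75-fold higher. The fitted log2 difference over all libraries was -2.10 ± 1.01 (SE, limma-trend adjusted p = 0.993). SLEAR shRNA-1 and -2 differed from each other by 0.79 on the log2(RPM + 1) scale and SLEAR shRNA-3 differed from their mean by -1.58.

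The value of 0 for CD28 in SLEAR shRNA-3 carries little weight. Its counting interval ends at 0.766 RPM, but among the 1712 other rows within 1.5-fold of the CD28 level in SLEAR shRNA-1 and -2, 53.6% were also at 0 in SLEAR shRNA-3, against 4.96% at 0 in Control. For CD69 and CD47, which were also at 0 there, the shares of like rows at 0 in SLEAR shRNA-3 were 66.6% and 73.6%.

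CD69, the early activation marker, was at 2.03 RPM in Control, and SLEAR shRNA-1, -2 and -3 had 1.70, 0.664 and 0 RPM, from about 17, 12, 5 and 0 reads. All 3 SLEAR shRNA values were lower, but the counting intervals of SLEAR shRNA-1 and -2 overlapped that of Control, 1.18 to 3.25 RPM. The log2 difference was -0.87 ± 0.77 (SE, limma-trend adjusted p = 0.993). CD47, the ligand of SIRP proteins, was at 1.19 RPM in Control and at 0.851, 0.797 and 0 RPM, from about 10, 6, 6 and 0 reads. The counting intervals of all 3 SLEAR shRNA libraries overlapped that of Control, and no difference was detectable at this depth. Its log2 difference was -0.55 ± 0.62 (SE, limma-trend adjusted p = 0.993).

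CD99 and CD44 had the most reads and the smallest spread. CD99 was at 314 RPM in Control, and SLEAR shRNA-1, -2 and -3 had 282, 298 and 267 RPM, with a SLEAR shRNA mean of 282 ± 15.8 RPM (SD, n = 3). All 3 were slightly lower than Control, and the log2 difference was -0.15 ± 0.18 (SE, limma-trend adjusted p = 0.993). The gene is in the reference on both sex chromosomes, and its level is uncertain, since the sources used here do not give how reads that match both copies were divided. CD44 was at 240.2 RPM in Control and at 227, 226 and 188 RPM, a mean of 214 ± 21.9 RPM (SD, n = 3). SLEAR shRNA-1 and -2 were within counting error of Control and SLEAR shRNA-3 was lower, and the log2 difference was -0.17 ± 0.21 (SE, limma-trend adjusted p = 0.993). For both genes Control exceeded the mean of SLEAR shRNA-1 and -2 by less than 10%: 1.08-fold for CD99 and 1.06-fold for CD44.

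**Figure D2:**
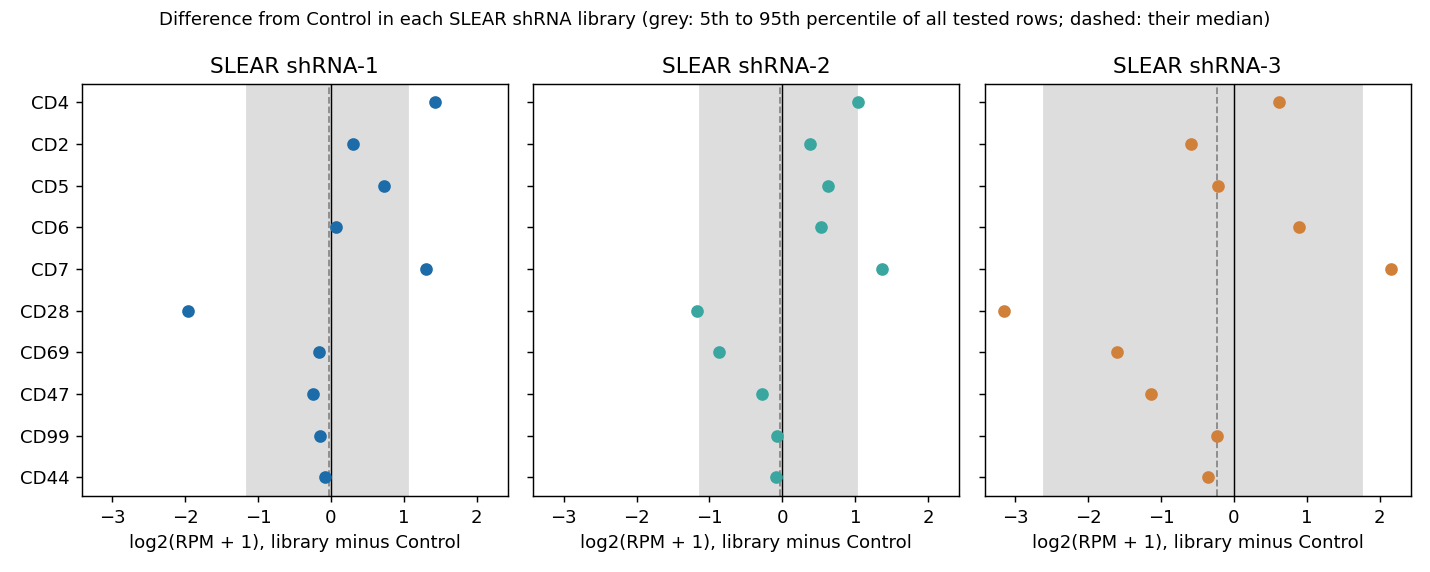
Difference of each SLEAR shRNA library from Control (x axis, log2(RPM + 1) units) for the 10 genes (y axis). Points are single values that share the 1 Control, the grey band spans the 5th to 95th percentile of all 12350 tested rows in that library, and the dashed line is their median; CD7 and CD28 lie outside the band in all 3 libraries and CD4 in SLEAR shRNA-1 and -2.

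Set beside all tested rows, CD7 and CD28 stood at the edges in each library, as the plot of differences by library shows. In SLEAR shRNA-1 the 5th and 95th percentiles of all rows were -1.15 and 1.06, and CD7, CD4 and CD28 differed from Control by 1.30, 1.43 and -1.96. In SLEAR shRNA-2 the percentiles were -1.13 and 1.03, against 1.36, 1.04 and -1.18 for the same genes. In SLEAR shRNA-3 the band was wider, -2.61 to 1.75, with CD7 at 2.16, CD4 at 0.62 and CD28 at -3.15. The percentiles are over rows of every level, and rows with few reads, such as these 3, vary more.

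SLEAR shRNA-3 stood apart in its number of values at 0, so each gene was also fitted without it. The log2 difference was then 1.33 ± 0.33 (SE) for CD7, 1.23 ± 0.31 (SE) for CD4 and -1.57 ± 0.53 (SE) for CD28. None of these passed by limma-trend after adjustment. CD2 moved from 0.03 to 0.34 and CD5 from 0.38 to 0.68, whereas CD6 moved from 0.50 to 0.30. CD69 and CD47 moved to -0.51 and -0.27, and CD99 and CD44 to -0.11 and -0.09. Leaving out SLEAR shRNA-1 or -2 instead gave larger SEs. CD7 was then at 1.76 ± 1.09 and 1.73 ± 1.05 (SE), and CD4 at 0.83 ± 0.90 and 1.03 ± 0.86 (SE). For CD28 the log2 differences were -2.16 ± 1.44 and -2.56 ± 1.04 (SE).

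CD5 was the 1 gene of the 10 that passed in any fit. Without SLEAR shRNA-3 and among the 4851 rows with a mean log2(RPM + 1) of at least 4, it rose 1.60-fold, a log2 difference of 0.68 ± 0.20 (SE, limma-trend adjusted p = 0.0116). In that fit 7.11% of rows were called higher and 7.26% lower, and 5 of the 10 genes were high enough to enter it. CD2 (1.26-fold, adjusted p = 0.218), CD6 (1.23-fold, adjusted p = 0.246), CD44 (adjusted p = 0.759) and CD99 (adjusted p = 0.652) did not pass. The spread in that fit was pooled completely over rows. In SLEAR shRNA-3, which it left out, CD5 was at 33.9 RPM, below Control but with overlapping counting intervals.

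**Figure D3:**
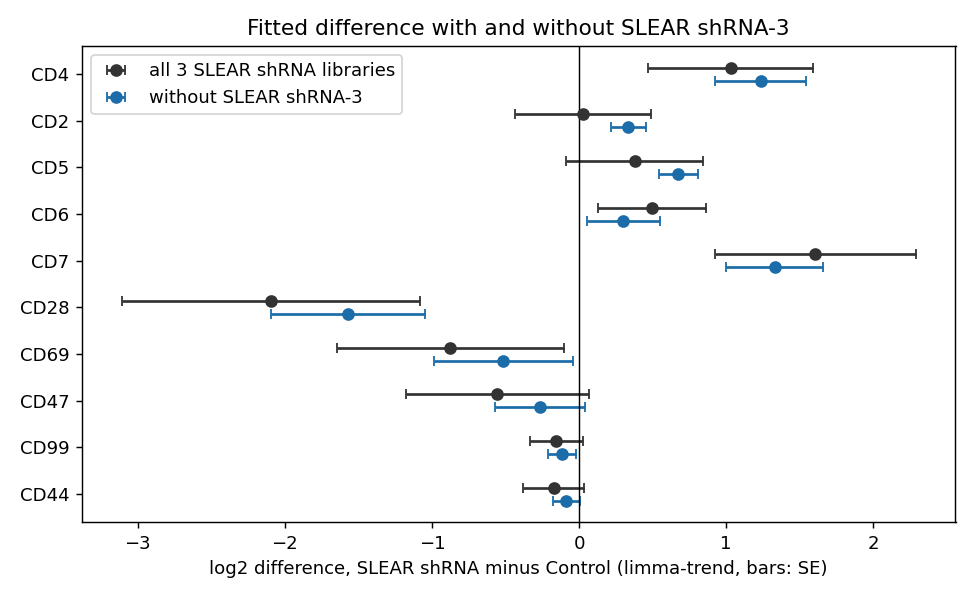
Fitted log2 difference of SLEAR shRNA from Control (x axis, log2(RPM + 1) units) for the 10 genes (y axis), with all 3 SLEAR shRNA libraries (dark) and without SLEAR shRNA-3 (blue), over the 12350 tested rows. Bars are the SE from limma-trend; no point passed the threshold, and CD2 and CD5 shifted upward without SLEAR shRNA-3, from 0.03 to 0.34 and from 0.38 to 0.68.

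The genes around these molecules were followed in 3 lists. The shares over all tested rows set beside them depend on level. Among the 4851 rows with a mean log2(RPM + 1) of at least 4, Control lay below all 3 SLEAR shRNA libraries for 25% and above for 25.6%. The median log2 difference of these rows was -0.02. Such rows made up 23 of the 48, 6 of the 13 and 24 of the 36 tested genes of the lists, and the part of level was not tested. Of 65 other T cell surface molecules, 48 were tested and 0 passed in either direction; Control lay below all 3 SLEAR shRNA libraries for 16 of the 48 (17.8% of all tested rows) and above all 3 for 10 (28.6% of all tested rows), and the median log2 difference was 0.12, against -0.11 over all tested rows. ICAM3, an adhesion molecule that binds the integrin LFA-1, was at 118 RPM in Control, and SLEAR shRNA-1, -2 and -3 had 189, 174 and 222 RPM (unadjusted p = 0.0281, limma-trend adjusted p = 0.993). CCR7, the chemokine receptor for entry into lymph nodes, was at 5.13 RPM against 11.8, 10.1 and 20.8 RPM, and CD8A, the other coreceptor chain, at 122 RPM against 168, 178 and 139 RPM. Toward lower levels, CD226, CD1C and CD1D were at 2.15, 2.62 and 1.31 RPM in Control, and all 3 were at 0 in SLEAR shRNA-3. In the fit without SLEAR shRNA-3 and with a mean log2(RPM + 1) of at least 4, which called 7.11% of rows higher and 7.26% lower, 23 members were tested, 3 were called higher and 0 lower: ICAM3 (1.53-fold, limma-trend adjusted p = 0.00314), CD8A (1.41-fold, adjusted p = 0.0223) and the tetraspanin CD81 (1.67-fold, adjusted p = 0.000284). CD81 had 109 RPM in Control and 168, 197 and 87.9 RPM with SLEAR shRNA, so in SLEAR shRNA-3 it was below Control.

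Of 28 ligands and counter-receptors of the 10 genes, 21 were in the table and 13 were tested, and 0 passed. Control lay below all 3 SLEAR shRNA libraries for 5 of the 13 and above all 3 for 2, against 17.8% and 28.6% of all tested rows, and the median log2 difference was 0.27, against -0.11. CD48 and CD59, higher in all 3, are also in the list of other T cell surface molecules and are counted in both. SIRPG, the SIRP protein of T cells that binds CD47, was at 115 RPM in Control and at 179, 188 and 123 RPM. It was the 1 member of 6 called higher (1.59-fold, limma-trend adjusted p = 0.00123), with 0 lower, in the fit without SLEAR shRNA-3 and with a mean log2(RPM + 1) of at least 4, where 7.11% of rows were called higher and 7.26% lower. CD99L2, a relative of CD99, was at 12.2 RPM against 20.4, 19.8 and 25.8 RPM, and PILRB, of the receptor family that binds CD99, at 744 RPM against 961, 769.8 and 969 RPM. ALCAM, the ligand of CD6, was at 108 RPM against 105, 93.7 and 87.7 RPM, and MYL12A, a myosin light chain, at 52.1 RPM against 51.5, 48.8 and 51.3 RPM. CD58, the ligand of CD2, was at 12.4 RPM in Control, and SLEAR shRNA-1, -2 and -3 had 13.6, 13.7 and 0.208 RPM. Of the CD28 ligands, CD86 was at most 0.142 RPM, and CD80 is not analysed here.

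Of 40 cytoplasmic partners, all were in the table, 36 were tested and 0 passed; Control lay below all 3 SLEAR shRNA libraries for 10 of the 36 and above all 3 for 9, against 17.8% and 28.6% of all tested rows, with a median log2 difference of 0.02, against -0.11. PTPN6, the phosphatase SHP-1, which associates with CD5, had the smallest unadjusted p of the 3 lists, 0.00718 (limma-trend adjusted p = 0.993), at 22.7 RPM in Control and 49.9, 54.9 and 59.6 RPM. EZR, the membrane linker ezrin, which binds CD44, was at 71 RPM in Control and at 112, 95.2 and 96 RPM, while MSN, its relative moesin, was at 1011 RPM against 837, 819 and 667 RPM. LCK, the kinase that CD4 carries, was at 753 RPM against 925, 884 and 1037 RPM. GRAP2, the adaptor GADS, which binds CD28, was at 45.1 RPM against 31.9, 22.7 and 13.5 RPM, lower in all 3 as CD28 was. PIK3CA, the catalytic subunit of the lipid kinase that CD28 recruits, was at 7.87 RPM against 2.98, 3.19 and 0 RPM. In the fit without SLEAR shRNA-3 and with a mean log2(RPM + 1) of at least 4 (7.11% of rows higher, 7.26% lower), 3 of 24 partners were called higher, PTPN6 (2.25-fold), EZR (1.45-fold) and the adaptor LAT (1.42-fold), and 1 was called lower, GRAP2 (1.65-fold lower, limma-trend adjusted p = 0.0238). LAT had 140 RPM in Control and 206, 193 and 118 RPM with SLEAR shRNA, so in SLEAR shRNA-3 it was below Control.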

How the data were processed

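The deposited table gave RPM for each transcript row in 4 Jurkat libraries. Build hg19 and the tools Bowtie2, SAMtools and FastQC (no version given) are listed in the submitters' processing notes; the sources used here do not give how reads were assigned to rows. Where rows averaging 1 RPM or more agreed exactly across all libraries, 1 was kept, which removed 177. Depth came from the step between low values, and of the values above 0 96.4% to 96.8% per library were whole multiples within 0.05 reads. Counting intervals rest on these estimates and cover counting error only.

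Groups were compared with limma-trend (limma 3.58.1, R 4.3.3) on log2(RPM + 1), a scale that understates the fold change of low genes. Rows that reached 1 RPM in any library were kept, and the main fit had 2 residual degrees of freedom. Fits without a library had fewer, and their row filters still used every library, including the library left out. The code was tested on simulated data. All 10 genes are named, with the 3 tested genes of smallest unadjusted p in each direction per list (by the row of highest mean). CD3G, CD80, CD81, CD86, LAT and TCF7 and the other marker genes were named after their values were seen. The genes and lists were chosen with earlier results of these data known. Transcript ends came from GENCODE 29 and are of another build than hg19, so no coordinates are given.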

Additional observations from a re-analysis of the deposited data

How the results depend on the processing

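The 14 alternatives were other scalings, filters, pseudocounts of 0.1 and 5, limma-voom, array weights, rows summed by symbol, and fits that left out libraries. All called 0 rows in both directions, the leave-one-out fits included (0 to 0), except 2. With no filter, 1 row was called higher and 376 lower, and without SLEAR shRNA-3 at a mean log2 of at least 4, 345 higher and 352 lower. Of 128 values for the 10 genes, 125 kept their direction and their side of the threshold. CD2 turned, to -0.10 without SLEAR shRNA-1 and -0.14 without SLEAR shRNA-2 (0.34 without SLEAR shRNA-3), and CD5 passed as given above, at 0.68; the cause was not tested. Over the alternatives the log2 difference ranged from -3.42 to -1.03 for CD28, from 1.01 to 1.87 for CD7 and from 0.76 to 1.23 for CD4, and the lowest adjusted p was 0.368, 0.301 and 0.311. CD69, CD47 and CD28 rest on 66 reads or fewer in every library, and CD7 on 24 in Control. No paired analysis was possible because Control is a single library without a number.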
